A study of Mus musculus with 2 samples.

Results

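The 44 genes described here act in G2 phase and mitosis. They were chosen by name, as known mitotic and G2/M genes, and all 44 were found by symbol among the 27998 genes of the deposited matrices. Single-cell RNA sequencing (10x Chromium, v2 chemistry) was performed on effector CD8+ T cells from the spleens and lymph nodes of OT-I mice, whose transgenic T cell receptor recognises the SIINFEKL peptide of ovalbumin. Per the labels, spleen cells received the peptide and interleukin-2 (100 U/ml) for 48 h, which activates the T cells. One culture was then kept for 20 h at 1 mM glucose (transient glucose restriction, TGR) and the other for 20 h at 11 mM glucose (control). The sample descriptions speak of a 3-day culture before the exposure instead. Mice were 8 to 12 weeks old, per the labels, which do not say whether animals were pooled. Each condition was 1 library, so no difference below has a replicate check, no p-value is given, and each value describes these 2 libraries.

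Cells enter mitosis when CDK1 bound to cyclin A or B becomes active. CDC25 phosphatases and the kinases PLK1 and Aurora A drive that activation. Kinetochores and kinesin motors then align the chromosomes, the spindle checkpoint holds the anaphase-promoting complex (APC/C) back until alignment is complete, and the APC/C with CDC20 destroys the cyclins. Messages of most of these genes are made in waves late in the cycle. Many of their promoters carry CCAAT boxes and a cell cycle homology region (CHR), the element that MuvB complexes bind, and activated CD8+ T cells, which divide fast, are rich in these messages.

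Sequence upstream of 4 members was searched for these elements: Ccnb1 and Cdc20, which were furthest below control, Ncapd2, which was within 1.5-fold, and Psrc1, the only member counted as higher in TGR. No CHR letters were found for Ccnb1 or Psrc1. Each run is from RefSeq (GRCm38.p6), reads 5′ to 3′ on the gene's strand, and stops before the first base of any GENCODE M21 exon. Capitals mark CCAAT (or ATTGG, its reverse complement) and the CHR letters TTTGAA (or TTCAAA). The 4 were picked after their values were seen.
Ccnb1, chr13:100786571-100786720, minus strand: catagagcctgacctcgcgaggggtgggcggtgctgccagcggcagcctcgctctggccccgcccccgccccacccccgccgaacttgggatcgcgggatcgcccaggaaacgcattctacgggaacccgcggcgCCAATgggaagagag
Cdc20, chr4:118437353-118437502, minus strand: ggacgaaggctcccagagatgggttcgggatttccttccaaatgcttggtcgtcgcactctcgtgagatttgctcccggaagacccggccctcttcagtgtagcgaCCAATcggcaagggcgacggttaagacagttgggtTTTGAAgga
Ncapd2, chr6:125191702-125191800, minus strand: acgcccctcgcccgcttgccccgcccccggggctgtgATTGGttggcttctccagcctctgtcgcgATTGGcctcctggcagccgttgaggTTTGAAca
Psrc1, chr3:108383742-108383803, plus strand: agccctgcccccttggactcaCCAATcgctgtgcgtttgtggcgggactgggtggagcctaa

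Upstream windows of 250 bases were found for 37 of the 44 members. CCAAT on either strand was in 31 of the 37 (83.8%), against 34.5% of the windows of 27025 genes. TTTGAA on either strand was in 17 (45.9%), against 16.3% of all windows. Both were present in 16 members (43.2%), against 5.73% of all windows. The letters did not order the members by their difference between libraries: the median fold lower in TGR was 2.42 for the 17 with TTTGAA and 2.40 for the 20 without it. In the windows as printed, the CHR letters stand in Cdc20 and in Ncapd2, although Cdc20 was 4.46-fold lower in TGR and Ncapd2 was not counted as different.

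Molecules were counted as UMIs (unique molecular identifiers). Cells stayed in when 500 or more genes were detected and mt- genes held less than 10% of UMIs. This kept 2546 TGR cells with 19696068 UMIs and 3127 control cells with 14730128 UMIs, with medians of 6266 and 4030 UMIs per cell. Of the deposited barcodes, 11 occur in both libraries, 9 of them among kept cells. Cd3d, Cd3e, Cd3g, Cd8a, Cd8b1 and Lck were each found in 50.3% to 97.7% of TGR and 41.7% to 89.5% of control cells. In the median cell, 49.4% of TGR and 39.7% of control UMIs came from ribosomal protein genes, which lowers the CPM (UMIs per 1000000 of the library) of all other genes in TGR. With ribosomal protein and mt- genes taken out of the totals, the median log2 ratio of all scored genes moves to 0.10 in place of -0.16, and that of the genes described here to -1.01 in place of -1.27. Marker lists of other cells summed to 12.7 CPM in TGR and 19.1 CPM in control for B cells, 62.6 and 124 CPM for the 8 myeloid genes, 14.6 and 4.07 CPM for CD4+ T cells, 2.28 and 3.12 CPM for NK cells, and 0 and 0.204 CPM for erythroid cells. Most of the myeloid sum was Cst3, found in 35.04% of TGR and 38.6% of control cells, Fcer1g and Tyrobp were in up to 1.06% of cells, and Itgax, Flt3 and Siglech had no UMI in either library. Most of the CD4+ T cell sum was Zbtb7b, at 12.3 CPM in TGR and 2.44 CPM in control, while Cd4 itself was at 1.32 and 1.29 CPM. At least 2 B, myeloid or erythroid UMIs were found in 290 TGR and 467 control cells, and without these cells the count of members lower in TGR, given below, stayed at 38.

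Most mitotic and G2/M messages were lower in TGR cells. Of the 43 members with at least 10 CPM in either library, 38 were at least 1.5-fold lower in TGR with a 95% counting interval that leaves out a ratio of 1. Only Psrc1 was higher by the same rule. Over all 6667 genes scored, 21.9% were lower and 9.33% were higher by this rule. The members' median log2 ratio of TGR over control was -1.27, with a range of -2.50 to 0.59. Member UMIs together came to 2824 CPM in TGR and 6222 CPM in control, 2.203-fold lower. Of the 4 members between these calls, Ttk (a checkpoint kinase), Nusap1, Ncapd2 and Smc4, all but Smc4 had fewer CPM in TGR. Anln, which encodes anillin of the contractile ring, stayed below 10 CPM with 65 UMIs in TGR and 120 in control. With ribosomal protein and mt- genes out of the totals, 34 members were lower, and Kif11, Top2a, Gtse1 and Mki67 no longer were. The share of all genes lower with these totals was not counted.

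**Figure D1:**
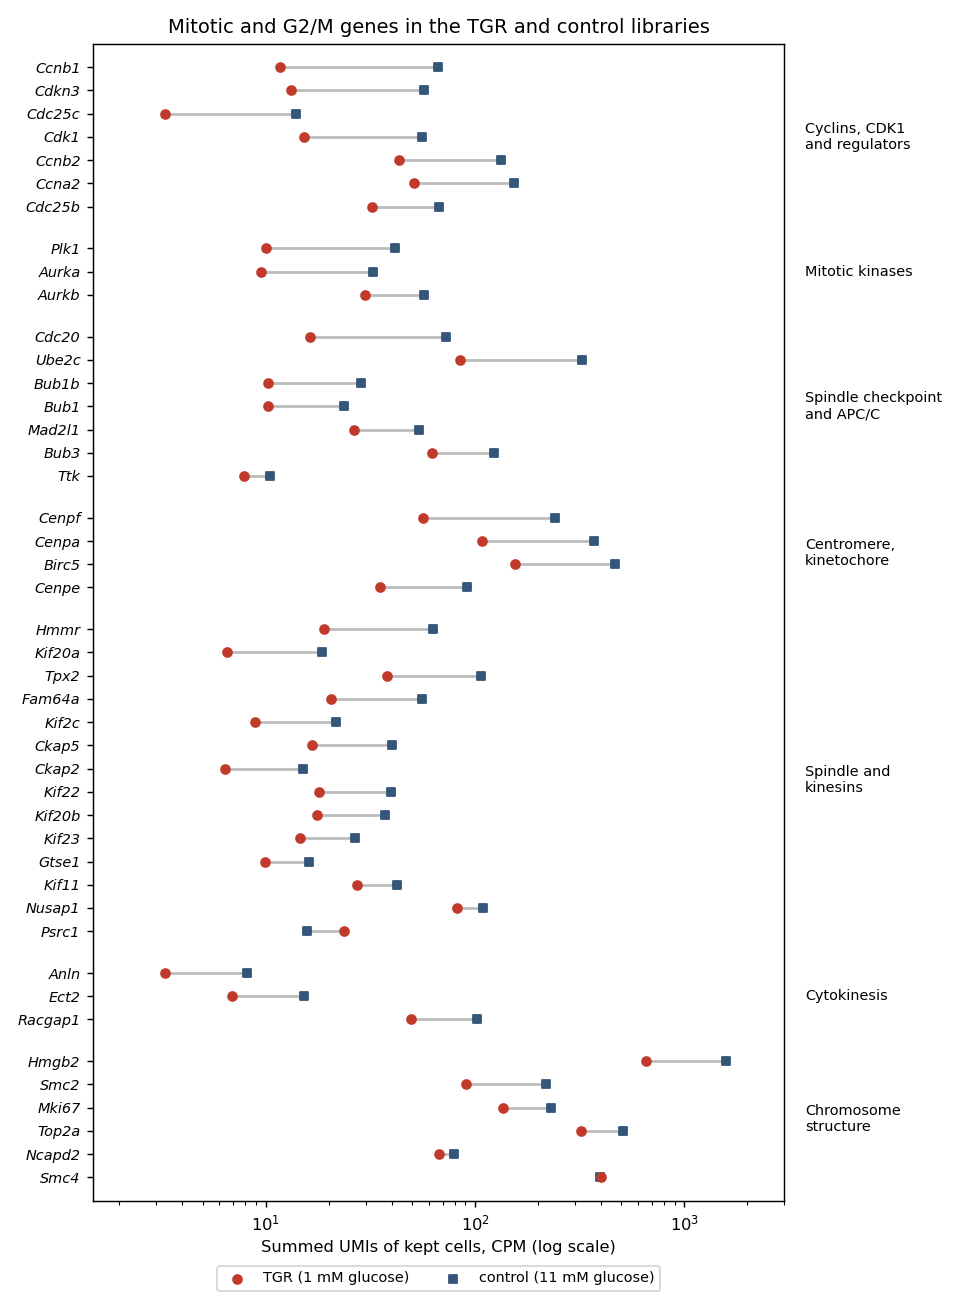
CPM of each of the 44 members (log scale) in the TGR library (red circles) and the control library (blue squares), grouped by role and ordered within a role by the fold difference; a grey line joins the libraries. The TGR point lies left of the control point for all members but Psrc1 and Smc4, and the gap is widest for Ccnb1.

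The cyclins, CDK1 and their regulators were lower in TGR in 7 of 7 cases. Ccnb1 (ENSMUSG00000041431; cyclin B1; chromosome 13 from 100778650 to 100786570 on the minus strand, GRCm38) had 230 UMIs in TGR and 976 in control, or 11.7 and 66.3 CPM. That is 5.67-fold lower in TGR with a counting interval of 4.91 to 6.58, the largest difference of any member. Ccnb2 (cyclin B2) was at 43.5 CPM in TGR and 133 CPM in control, 3.07-fold lower (interval 2.83 to 3.33). The intervals of both B cyclins do not meet, so cyclin B1 differed more than cyclin B2. Ccna2 (cyclin A2) was 2.99-fold and Cdk1, their shared kinase partner, 3.66-fold lower. The activating phosphatase genes parted: Cdc25c was 4.22-fold lower with few UMIs (65 in TGR, 205 in control), and Cdc25b was at 32.2 and 67.3 CPM, 2.09-fold lower. Cdkn3, a phosphatase that acts on CDKs, was 4.32-fold lower at 13.1 CPM in TGR and 56.8 CPM in control.

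All 3 mitotic kinase genes were lower in TGR. Plk1 was at 10.0 CPM in TGR and 41.4 CPM in control, 4.14-fold lower (interval 3.52 to 4.89). Aurka, whose kinase works at the centrosome and spindle, was at 9.55 and 32.7 CPM, 3.43-fold lower. Aurkb, the kinase of the chromosomal passenger complex, was at 29.9 and 56.9 CPM and only 1.91-fold lower (interval 1.71 to 2.12). Birc5 (survivin), a partner of Aurora B in that complex, had 3052 UMIs in TGR and 6851 in control and was 3.00-fold lower (interval 2.88 to 3.13). Members of 1 complex therefore differed in size of change.

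Among checkpoint and APC/C genes 6 of 7 were lower. Cdc20, the APC/C activator (ENSMUSG00000006398; chromosome 4 from 118432901 to 118437352 on the minus strand), was at 16.3 CPM in TGR and 72.9 CPM in control, 4.46-fold lower (interval 3.93 to 5.07). Ube2c, the ubiquitin-conjugating enzyme of the APC/C, was at 84.6 and 324 CPM, 3.83-fold lower. The checkpoint proteins' genes were closer: Bub1b 2.79-fold, Bub1 2.32-fold, Mad2l1 2.04-fold and Bub3 1.97-fold lower. Ttk had 155 UMIs in each library, which is 7.87 CPM in TGR and 10.5 CPM in control.

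All 4 centromere and kinetochore genes were lower, Birc5 included. Cenpf, a large kinetochore protein that builds up in G2, was at 56.2 CPM in TGR and 240 CPM in control, 4.27-fold lower (interval 3.99 to 4.58). Cenpa, the centromeric histone H3 variant, was at 108 and 368 CPM, 3.43-fold lower. Cenpe, a kinetochore motor, was at 35.03 and 91.5 CPM, 2.61-fold lower.

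Spindle and kinesin genes were lower in 12 of 14 cases. Hmmr, a spindle assembly factor, was at 18.9 CPM in TGR and 63.2 CPM in control, 3.35-fold lower, and Tpx2, which activates Aurora A on the spindle, was at 37.9 and 107 CPM, 2.82-fold lower. The kinesin genes ran from 1.55-fold lower (Kif11, the motor that separates spindle poles) over 1.83-fold (Kif23), 2.11-fold (Kif20b), 2.196-fold (Kif22) and 2.43-fold (Kif2c) to 2.83-fold lower (Kif20a). Ckap5, which promotes microtubule growth, was 2.43-fold lower, Ckap2 2.36-fold, Fam64a 2.73-fold and Gtse1 1.62-fold lower. Nusap1, a microtubule-binding protein, was at 82.4 and 110 CPM, a ratio short of 1.5-fold. Psrc1, a microtubule regulator also known as a p53-induced gene (ENSMUSG00000068744; chromosome 3 from 108383839 to 108388231 on the plus strand), was the exception with 464 UMIs in TGR and 231 in control. At 23.6 and 15.7 CPM it was 1.502-fold higher in TGR (interval 1.28 to 1.77), right at the limit, and it was just under that limit with all barcodes, under 5% mt- UMIs, or without the 5% of cells with most UMIs. Of the cytokinesis genes, Racgap1 was 2.06-fold and Ect2, which activates RhoA at the cleavage site, 2.202-fold lower.

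Of the 7 roles, chromosome structure had the median log2 ratio nearest 0, at -0.72, and its condensin members parted. Smc2, which encodes a core subunit of condensin, was at 90.2 CPM in TGR and 218 CPM in control, 2.42-fold lower (interval 2.28 to 2.56). Its direct partner gene Smc4 was at 398 and 393 CPM, a ratio of 1.01 (interval 0.977 to 1.05), and Ncapd2, a further condensin subunit gene, was at 67.2 and 79.3 CPM. With ribosomal protein and mt- genes out of the totals Ncapd2 changed sign, to a log2 ratio of 0.02, and Smc4 reached 0.28. Top2a (topoisomerase II alpha) was at 321 and 511 CPM and Mki67 (Ki-67, the chromosome surface protein used as a proliferation marker) at 135 and 232 CPM, 1.59-fold and 1.71-fold lower. Hmgb2, a DNA-bending chromatin protein and the member with most UMIs, was at 652 and 1577 CPM, 2.42-fold lower (interval 2.36 to 2.47). Of all member UMIs in cells thinned to equal depth, chromosome structure genes made up 60.004% in TGR and 49.1% in control, and Smc4 alone 15.6% and 6.55%. Centromere and kinetochore genes made up 12.5% and 18.6%.

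A lower sum can come from fewer cells with the message, from fewer molecules in each such cell, or from both. TGR cells had more UMIs each, so every cell was thinned at random to 1500 UMIs, which left out no TGR cell and 91 shallower control cells. In these, 1.22% of TGR cells (31 of 2546; exact binomial interval 0.829 to 1.72) and 8.63% of control cells (262 of 3036; 7.65 to 9.69) had a Ccnb1 UMI. Before thinning the shares were 6.48% and 23.1%. Positive cells held 1.10 Ccnb1 UMIs in TGR and 1.06 in control, next to the least that a positive cell can hold. The share of positive cells was 7.09-fold lower and the mean per cell 6.86-fold lower. For Cdc20, 1.96% of TGR and 10.2% of control cells were positive, with 1.06 and 1.09 UMIs each.

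The same held for most members. Over the 33 members at least 1.5-fold lower in this mean and with 100 or more positive control cells, the log2 ratio of positive shares was a median of 95.1% of the log2 ratio of means. The share of positive cells was lower in TGR for all 33, which were picked for a lower mean in these same cells. UMIs per positive control cell were as low as 1.02, however, and a value that cannot go under 1 leaves little room for any other result. Per-cell amounts were therefore read only for members with at least 1.5 UMIs per positive control cell: Hmgb2, Top2a and Birc5 at 1500 UMIs, joined by Ube2c, Cenpa, Cenpf and Mki67 in cells thinned to 3000 UMIs, and by Ccnb2, Ccna2 and Smc2 in unthinned cells with 4000 to 6000 UMIs.

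That band held 794 TGR and 837 control cells with medians of 4994 and 4863 UMIs. The band ends below the TGR median of UMIs per cell and starts just below the control median, so it takes shallower cells of TGR and mostly deeper cells of control. Hmgb2 stood apart from the other members. It was found in 71.5% of TGR cells (68.3 to 74.7) and 99.5% of control cells (98.8 to 99.9), with 3.77 and 8.31 UMIs per positive cell. Positive cells were thus 1.39-fold fewer and held 2.202-fold less, and the share of positive cells made up 29.5% of the log2 difference. At 1500 UMIs that part was 54.8% and at 3000 UMIs 37.4%. Nearly every control cell had the message, so for Hmgb2 the amount per cell carried more of the difference as depth grew.

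For Cenpf and Ube2c both parts were visible in the same band, with the number of cells the larger. Cenpf was in 9.70% of TGR and 50.5% of control cells, with 1.42 and 2.21 UMIs per positive cell, and the positive share made up 78.7% of the log2 difference. Of Cenpf-positive cells, 32.5% in TGR (22.2 to 44.1) and 56.5% in control (51.6 to 61.3) held 2 or more UMIs. Ube2c was in 17.0% and 62.7% of cells with 1.67 and 2.62 UMIs each, a part of 74.4%. Cenpa (82.8%), Birc5 (82.7%), Smc2 (81.7%) and Top2a (84.6%) were alike in this. For Ccnb2 and Ccna2 the part was 93.5% and 94.6%, but their positive control cells held only 1.53 and 1.54 UMIs. A positive cell cannot hold under 1 UMI, so much of that part was set in advance. The same floor bounds the per-cell part of the other members here, less tightly where positive control cells held more UMIs.

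For Mki67 the difference lay in the share of positive cells. It was in 23.4% of TGR cells (20.5 to 26.5) and 60.9% of control cells (57.5 to 64.3), but positive cells held 1.95 UMIs in TGR and 1.84 in control. The same values at 3000 UMIs were 1.52 in both libraries. Of Mki67-positive cells in the band, 47.3% (39.96 to 54.7) in TGR and 48.4% (44.02 to 52.9) in control had 2 or more UMIs, a difference within counting error. Smc4 was in 72.0% of TGR and 79.0% of control cells with 2.65 and 2.40 UMIs per positive cell, so neither part set the libraries apart by 1.5-fold.

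**Figure D2:**
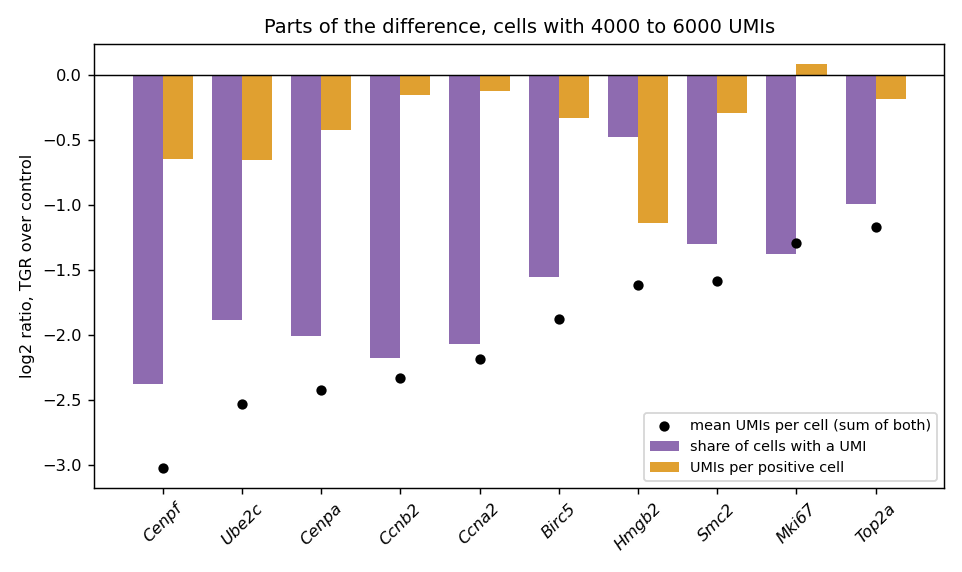
Bars give the log2 ratio of TGR over control for the share of cells with a UMI (purple) and for UMIs per positive cell (yellow), in unthinned cells with 4000 to 6000 UMIs; black points give the log2 ratio of the mean, which is their sum. The purple bar is the longer for 9 of the 10 members shown, and Hmgb2 is the exception.

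The members were then summed in each cell. At 1500 UMIs a TGR cell held a mean of 3.81 member UMIs (median 3, quartiles 1 and 6) and a control cell 9.29 (median 8, quartiles 5 and 12), 2.44-fold lower. No member was detected in 17.0% of TGR and 0.527% of control cells. The median number of different members found in a cell was 2 in TGR and 6 in control. TGR cells piled up at 0 and 1 UMI, while control cells formed a single broad hump, so the whole distribution differed and not only its upper end. Cells with at least 10 member UMIs, called member-rich here, numbered 241 in TGR (9.47%, 8.36 to 10.7) and 1302 in control (42.9%, 41.1 to 44.7). This cut is a point on a continuous range, with 286 TGR and 868 control cells at 8 to 11 UMIs.

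**Figure D3:**
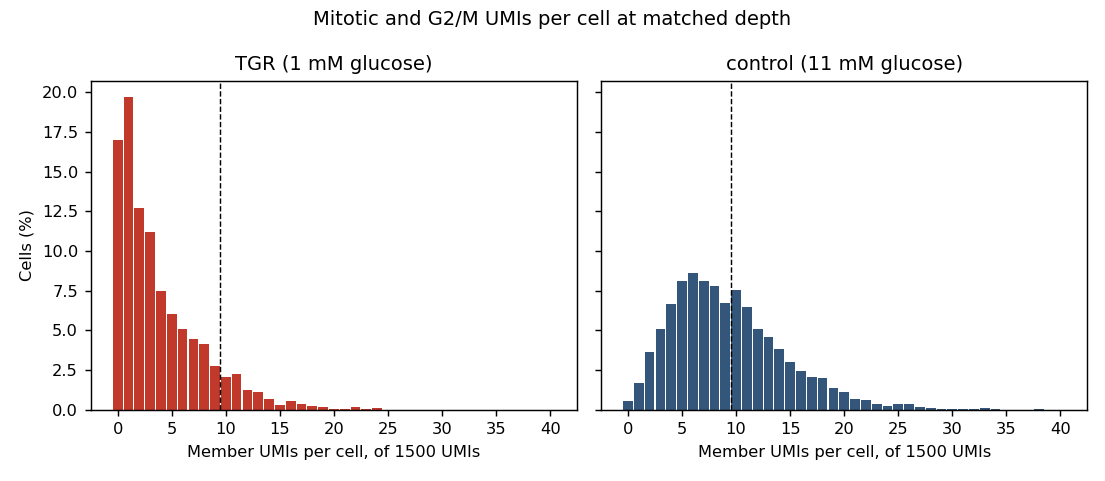
Percent of cells by number of member UMIs per cell after thinning to 1500 UMIs, for TGR (left) and control (right); the dashed line marks the cut of 10 UMIs. TGR cells pile up at 0 and 1 UMI, and 9.47% of TGR and 42.9% of control cells lie right of the line.

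Member-rich cells held 12.9 member UMIs each in TGR and 14.1 in control, values that the cut itself draws together. Cells below the cut held 2.86 and 5.67. Fewer member-rich cells made up 56.4% of the difference in means, lower values within the other cells 37.8% and lower values within member-rich cells 5.82%. This split depends on the cut: with 5 UMIs fewer rich cells made up 67.5%, and with 15 UMIs 30.6%.

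Each member was next compared in cells with at least 10 UMIs of the other members, 123 to 241 TGR and 758 to 1301 control cells depending on the member left out. These cells held 12.5 to 12.9 UMIs of the other members in TGR and 13.2 to 14.1 in control. Cells matched in this way must make up for a lower member with a higher one, so what can be read is the order of the members. By the 1.5-fold rule, here with no CPM minimum, 9 of the 44 were lower, 2 were higher and 33 were neither. All genes were not counted in these cells, so these counts have no background of their own. Over all cells 21.9% of scored genes were lower and 9.33% were higher. Among members with over 20 TGR UMIs in the rich cells, Cenpf was lower by the most, 2.40-fold (interval 1.82 to 3.21). It was at 242 UMIs per 1000 TGR cells and 581 per 1000 control cells. Ccnb1 was at 71.1 and 147 per 1000 cells, 2.07-fold lower (1.26 to 3.62), and Cdc20 at 80.9 and 168, 2.07-fold lower (1.30 to 3.51). Kif22, Plk1, Fam64a, Bub3, Hmmr and Ube2c were lower by 2.60-fold to 1.58-fold, the first and second on 8 and 11 TGR UMIs.

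The higher members were Ncapd2, at 246 per 1000 TGR and 145 per 1000 control cells (1.70-fold, 1.23 to 2.30), and Kif11, at 127 and 78.2 (1.62-fold, 1.04 to 2.45). Smc4 was 1.44-fold higher and Mki67 1.31-fold higher, both short of 1.5-fold with intervals above 1. On the lower side Ccnb2, Ccna2, Birc5, Cenpa and Hmgb2 were likewise short of it, at 1.49-fold to 1.29-fold lower, with intervals that leave out 1. Top2a was at 1023 and 949 per 1000 cells. Smc2, the third condensin member, had a ratio of 1.04 (0.825 to 1.31). Its interval overlapped those of Smc4 (1.23 to 1.69) and Ncapd2, so whether the condensin genes differed from each other here is not settled.

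**Figure D4:**
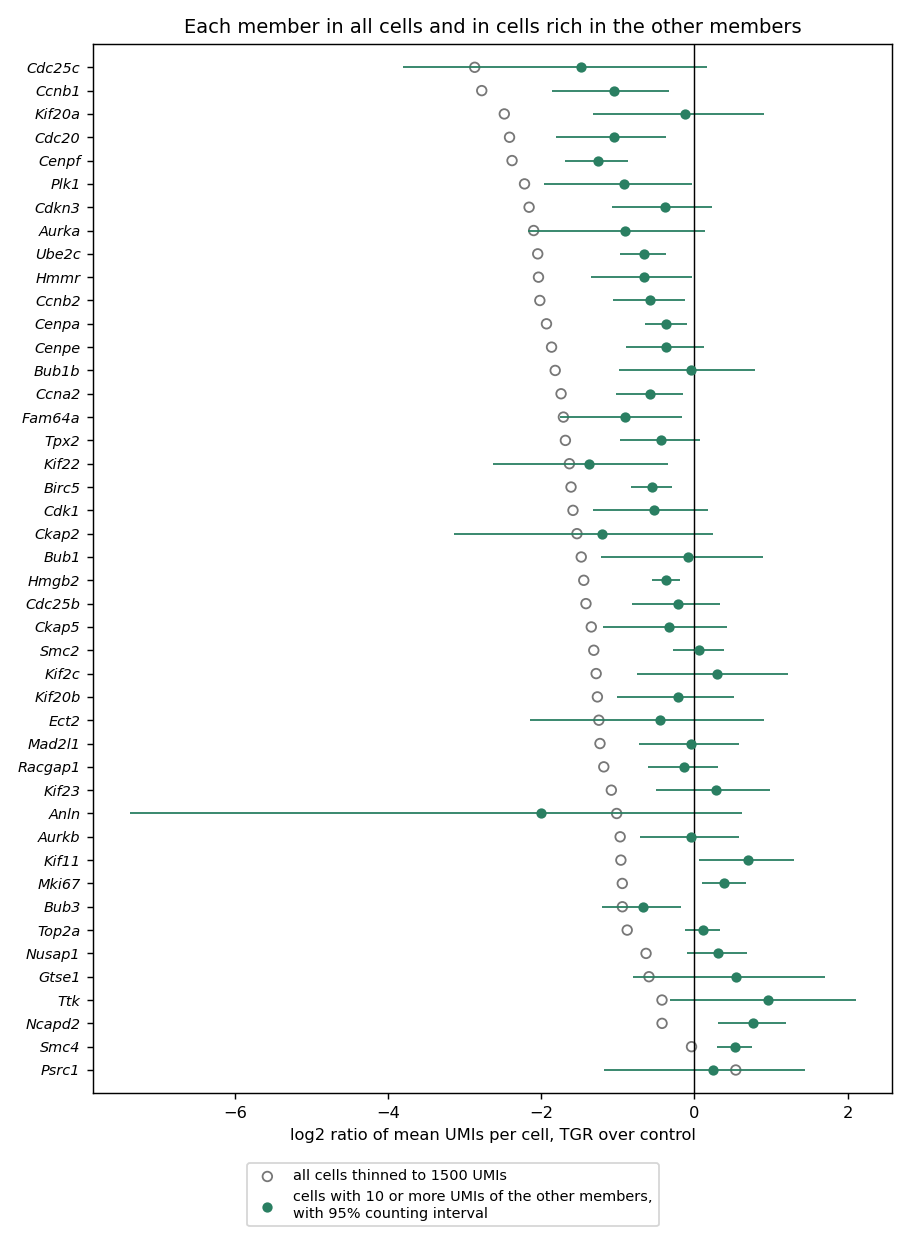
The log2 ratio of TGR over control in mean UMIs per cell for each member, in all cells thinned to 1500 UMIs (open circles) and in cells with 10 or more UMIs of the other members (green points with 95% counting intervals). Green points lie nearer 0 for 40 of the 44 members, toward which the choice of cells itself draws them. Cenpf, Ccnb1 and Cdc20 are among those to the left, and Ncapd2 and Kif11 among those to the right. Anln, Cdc25c and Kif22 lie furthest left, on 1, 3 and 8 TGR UMIs.

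Each message was also looked at in cells with few member UMIs, to which no cycle phase was assigned. These cells were not matched: 432 TGR cells held 0 and 502 held 1 member UMI, against 16 and 52 control cells. Among cells with at most 1 UMI of the other members, Ccnb1 was found in 0.639% of 939 TGR cells (0.235 to 1.39) and 1.45% of 69 control cells (0.0367 to 7.81), with median depths of 5346 and 2957 UMIs before thinning. Birc5 was in 2.94% (1.96 to 4.22) and 17.3% (9.78 to 27.3) of such cells, and Hmgb2 in 31.4% and 78.3%. For Birc5 and Hmgb2 the control level in these cells was above that in TGR beyond counting error. This was not particular to them. It also held for Top2a (8.09% in TGR, 26.4% in control), Cenpa (2.33% and 18.1%) and Mki67 (1.80% and 15.4%), among others. For other members, such as Ccnb1 and Smc4, the intervals overlapped. The amount of free RNA was not measured, and its part in these values was not tested.

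A list of 50 DNA replication genes that shares none of the 44 gave a second grouping of the cells. Replication UMIs were lower too, at 3.56 per 1500 in TGR and 6.28 in control cells. No replication UMI was found in 382 TGR cells (15.004%) and 30 control cells (0.988%), and 6 or more in 621 (24.4%) and 1722 (56.7%). Member UMIs were lower in TGR in all 4 bins. With 0 replication UMIs the means were 1.52 and 7.50 member UMIs per cell, 4.95-fold lower, and with 1 to 2 they were 2.62 and 9.54, 3.64-fold lower. With 3 to 5 they were 4.39 and 9.97, 2.27-fold lower, and with 6 or more 5.93 and 8.88, 1.498-fold lower. In TGR the member UMIs rose with replication UMIs, while in control they stayed between 7.50 and 9.97.

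Giving both libraries the control's shares of the 4 bins left 5.08 member UMIs per cell in TGR and 9.29 in control, 1.83-fold lower in place of 2.44-fold. Single members again spread widely under this weighting. Cdc25c was 8.19-fold lower (on 7 positive TGR cells), Ccnb1 7.12-fold, Cdc20 4.80-fold, Cdkn3 4.11-fold, Cenpf 4.09-fold and Ube2c 4.09-fold lower. Top2a was 1.203-fold and Mki67 1.29-fold lower, and Nusap1, Gtse1, Smc4, Ttk and Ncapd2 were at or above the control level, as was Psrc1. Ccnb1, Cdc20, Cenpf and Ube2c were also among the 9 members lower in cells rich in the other members, while Cdkn3 (1.31-fold lower, 0.851 to 2.10) and Cdc25c (3 TGR UMIs) were not. Both groupings use the same cells.

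**Figure D5:**
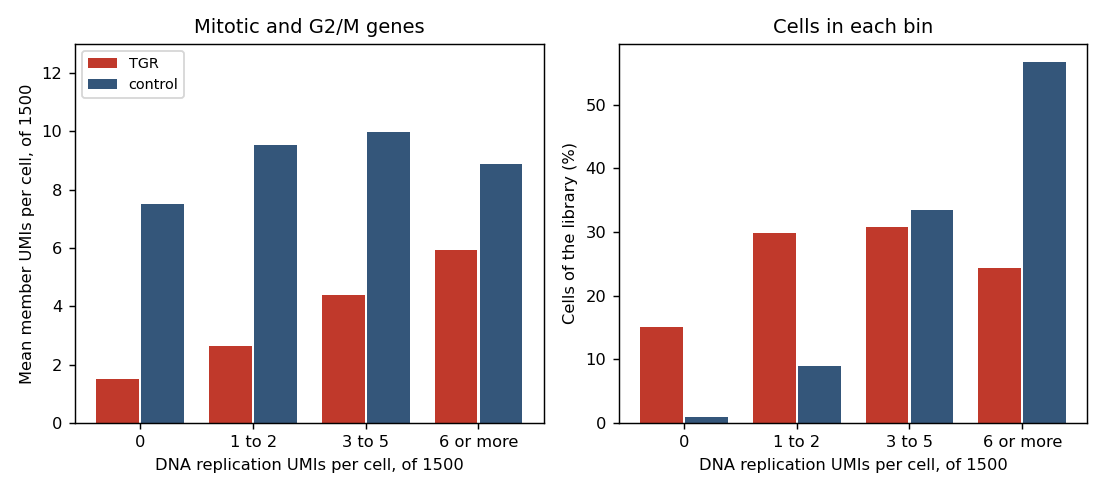
Left, mean member UMIs per cell (of 1500) in 4 bins of cells by their DNA replication UMIs, for TGR (red) and control (blue); right, the percent of each library's cells in these bins. TGR means climb over the bins to 5.93, all below control, and 56.7% of control but 24.4% of TGR cells lie in the highest bin.

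Other genes of the pathway were counted from lists. Of 63 further mitotic genes scored, 45 were lower in TGR and 0 higher, with a median log2 ratio of -0.89. No test was run. Over all scored genes the median was -0.16, with 21.9% lower and 9.33% higher by the same rule. Cks2, a CDK-binding subunit, was at 101 CPM in TGR and 363 CPM in control (3.60-fold lower), and Ccnf (cyclin F) at 8.99 and 27.5 CPM (3.06-fold lower). The abundant H2afz (histone variant H2A.Z) and Stmn1 (stathmin, which destabilises microtubules) were 2.53-fold and 2.05-fold lower. Of 49 replication genes, 27 were lower and 0 higher (median -0.64), with Dut 2.35-fold, Fen1 2.34-fold and Tipin 1.84-fold lower.

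Genes of the transcription factors and ubiquitin ligase that act on the members were closer to the background. Of 28 scored, 9 (32.1%) were lower, against 21.9% of all scored genes, and 1 was higher, with a median log2 ratio of -0.30. The higher one was Tfdp2, a partner of E2F factors, at 28.6 CPM in TGR and 15.5 CPM in control. Anapc15, an APC/C subunit gene, was 2.39-fold lower, Anapc5 was 1.56-fold lower, and Anapc11 was at 254 and 246 CPM. Foxm1 and Mybl2, which encode activators of the mitotic wave and were added here after their values were seen, gave 19.9 CPM in TGR against 26.7 CPM in control for Foxm1, and 25.5 against 41.5 CPM for Mybl2. By the 1.5-fold rule Mybl2 was lower and Foxm1 was neither.

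In the list of p53 targets and arrest genes 9 of 17 were higher and 1 lower in TGR, against 9.33% and 21.9% of all scored genes. The median log2 ratio was 0.60. Of the 7 that were neither, Mdm2 was at 30.1 CPM in both libraries and Aen at 29.9 CPM in TGR and 28.7 CPM in control. Bbc3 (PUMA, which promotes cell death) was 4.45-fold and the anti-proliferative Btg1 3.29-fold higher, Bax was at 264 and 374 CPM, and the lower one was Gadd45g at 16.8 and 29.7 CPM. Cdkn1a, the CDK inhibitor p21, was also among the higher 9, at 63.4 CPM in TGR and 25.9 CPM in control. A Cdkn1a UMI was found in 191 TGR cells (7.502%) and 99 control cells (3.26%) at 1500 UMIs. TGR cells with it held 5.48 member UMIs and those without it 3.67, while control cells held 8.20 and 9.33. Psrc1 stood at 68.1 UMIs per 1000 TGR cells with a Cdkn1a UMI (13 UMIs; exact Poisson interval 36.2 to 116) and at 27.6 per 1000 without it (65 UMIs; 21.3 to 35.2). In control the values were 70.7 (7 UMIs; 28.4 to 146) and 19.4 (57 UMIs; 14.7 to 25.1), and these intervals cover counting error only.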

How the data were processed

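The authors deposited whole-number UMI counts per gene and barcode, with no normalization, for 1 TGR and 1 control library. Cell Ranger 2.2, Seurat 3 and mm10 are named in the submitters' processing notes, without their roles; whether barcodes or doublets were removed before deposit is not given in the sources used here. The members and gene lists were chosen with earlier results of these data known. Kept cells had at least 500 genes and under 10% mt- UMIs, which removed 2 TGR and 209 control barcodes. Doublets were not called; the 5% of cells with most UMIs were left out in turn. Ratios are TGR over control of summed UMIs per library total, with 0.5 UMI added per library for log2 values and 95% intervals taken from the exact (Clopper-Pearson) interval for the TGR share of a gene's UMIs. Intervals cover counting error only. Thinning drew UMIs without replacement (NumPy 2.4.6, SciPy 1.17.1, Python 3.11.15). Alternative scalings used edgeR 4.0.16 and DESeq2 1.42.0 factors, with no test. Scripts were tested on simulated data. All members could be named. From other lists the 2 largest differences and 2 highest levels were, and Gadd45g as the 1 lower gene of its list. Cdkn1a, Mdm2, Aen, Foxm1 and Mybl2 were named outside this rule. Gene positions are from GENCODE M21 (GRCm38) for all 44. Exons of 3 members overlap another gene on the same strand and those of 9, among them Cdc20, Plk1, Ube2c and Ccna2, on the opposite strand, and how such reads were counted is not given in the sources used here.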

Additional observations from a re-analysis of the deposited data

How the results depend on the processing

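No paired analysis was possible because each condition was 1 library. For the same reason no replicate could be left out. The count of 38 members lower in TGR (of 43) was 38 under edgeR TMM and DESeq2 size factors, with all barcodes, under 5% mt- UMIs, and without the cells with most UMIs or with UMIs of other cell types. It was 23 of 26 with a minimum of 50 CPM, where fewer members were counted. The share of all genes that were lower was counted for the main setting only. With totals outside ribosomal protein and mt- genes the members' median log2 ratio was -1.01 in place of -1.27. The log2 ratio of member UMIs per cell, -1.29 at 1500 UMIs, was -1.53 in unthinned cells with 4000 to 6000 UMIs, -1.07 when thinned to 1000 UMIs outside ribosomal protein and mt- genes, -1.25 with a second seed and -1.24 without Hmgb2. After weighting by replication bins it was -0.87, with -0.70 outside ribosomal protein and mt- genes and -0.83 with all barcodes; the band of 4000 to 6000 UMIs gave no value there, since no control cell lacked replication UMIs. The part that fewer member-rich cells made up of the difference was the least settled. It was 56.4% at 1500 UMIs, 34.3% at 1000, 66.9% at 3000 and 73.0% in the band, and 67.5% or 30.6% with a cut of 5 or 15 UMIs. The part from fewer positive cells had medians of 85.9%, 81.0% and 82.7% over the 3, 7 and 10 members readable at 1500 UMIs, at 3000 UMIs and in the band; over all members UMIs per positive cell near 1 keep it high under any setting, so its median of 95.1% says nothing on stability. Directions of Smc4 and Ncapd2 changed with the setting, Smc4 to a log2 ratio of -0.02 without cells holding UMIs of other cell types. Depth limits per-cell amounts to the 10 members read in the band, and the floor of 1 UMI per positive cell bounds their parts too.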
